A study of Bos taurus and Bos indicus with 12 samples.

Results

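FOXP1 and SYT4 were followed in cattle skin through every array probe set that the platform annotation assigns to either gene symbol and to no other. This gave 4 probe sets of the 24016 tested, 2 for FOXP1 (Bt.17019.1.A1_at and Bt.28682.1.A1_at) and 2 for SYT4 (Bt.22143.1.A1_at and Bt.7751.1.S1_at). They cover 2 of the 9155 genes that a probe set names alone. Both genes were selected on their measured difference between Brahman and Holstein-Friesian arrays, so the breed values below are a description and carry no test.

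The study took full-thickness skin punches from 12 female cattle and put each on 1 Affymetrix bovine array. There were 3 infested Brahman animals aged 6 months, 3 infested Holstein-Friesian animals aged 6 months, 3 naive Brahman animals aged 18 months and 3 naive Holstein-Friesian animals aged 12 months. Infested animals had gone through repeated heavy exposure to the cattle tick Rhipicephalus microplus and were sampled where larvae sat on the skin, and naive animals had never met this tick. Brahman is an indicine (zebu) breed and Holstein-Friesian a taurine dairy breed. Infested animals were younger than naive ones in both breeds, so infestation and age cannot be told apart, and the naive breeds also differed in age.

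FOXP1 encodes a forkhead transcription factor that acts mainly as a repressor. It is known for its roles in B cell and monocyte development and, in mouse skin, in the resting state of hair follicle stem cells, and in human and mouse it is made in several isoforms. SYT4 encodes synaptotagmin 4, a vesicle membrane protein with C2 domains that takes part in regulated exocytosis in neurons and endocrine cells. A probe set reads a short stretch of a transcript. Probe sets of 1 gene can therefore report different transcript forms, and a sequence difference under the probes can change the signal without a change in transcript amount. The annotation ties the 4 probe sets to 4 different sequence records, and their places along the transcripts were not analysed here.

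Values are log2 expression from RMA (robust multi-array average), made by the authors. A level of 1 probe set cannot be set against that of another. In whole skin, fewer cells of a type and less RNA per cell cannot be told apart. The skin label fitted the arrays, since the keratinocyte genes KRT5 and KRT14 averaged 13.87 and 14.37 in infested Brahman, 13.83 and 14.31 in infested Holstein-Friesian, 13.93 and 14.36 in naive Brahman and 13.99 and 14.46 in naive Holstein-Friesian skin. The arrays differed in RNA integrity, measured as the mean 5' minus 3' signal of 5 control transcripts. This index lay between -4.91 and -2.07 in infested Brahman, -2.73 and -0.75 in infested Holstein-Friesian, -1.04 and -0.85 in naive Brahman and -1.39 and -0.82 in naive Holstein-Friesian arrays, where a low value marks weak 5' signal.

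The FOXP1 probe set Bt.17019.1.A1_at was low in every Brahman animal and higher in every Holstein-Friesian animal, whether infested or naive. It read 4.60, 4.21 and 4.28 in infested Brahman skin, against 7.23, 6.78 and 6.85 in infested Holstein-Friesian skin. Among naive animals it read 4.47, 4.26 and 4.40 in Brahman skin, against 6.94, 6.24 and 6.30 in Holstein-Friesian skin. The highest of the 6 Brahman arrays thus stood 1.64 log2 under the lowest of the 6 Holstein-Friesian arrays. The Brahman values were also close to each other, with an SD of 0.15 over the 6 arrays, against 0.38 over the 6 Holstein-Friesian arrays.

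The breed difference of this probe set was -2.59 ± 0.20 log2 (SE, n = 3 each), a 6.03-fold lower signal, in infested Brahman relative to infested Holstein-Friesian animals. It was -2.12 ± 0.20 log2, or 4.34-fold lower, in naive Brahman relative to naive Holstein-Friesian animals. In the Brahman arrays, 12.6% to 17.4% of all probe sets on the same array read lower than this one, against 42.3% to 58.2% in the Holstein-Friesian arrays. Detection calls were not used here, so whether the Brahman signal stood above background is unknown. From high to low, the group means were 6.95 ± 0.24 (SD) in infested Holstein-Friesian, 6.49 ± 0.39 in naive Holstein-Friesian, 4.37 ± 0.11 in naive Brahman and 4.36 ± 0.21 in infested Brahman animals. The 2 Holstein-Friesian groups overlapped, and so did the 2 Brahman groups.

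The other FOXP1 probe set, Bt.28682.1.A1_at, ran the opposite way. It read 8.32, 7.62 and 7.92 in infested Brahman skin, against 6.21, 4.99 and 5.57 in infested Holstein-Friesian skin. In naive animals it read 6.46, 7.0 and 6.51 in Brahman skin, against 5.25, 4.87 and 5.15 in Holstein-Friesian skin. All 6 Brahman arrays were above all 6 Holstein-Friesian arrays, with a gap of 0.25 log2 between naive Brahman 1 and infested Holstein-Friesian 1. The breed difference was 2.36 ± 0.29 log2 (5.14-fold) in infested animals and 1.57 ± 0.29 log2 (2.96-fold) in naive animals. Its group means were 7.95 ± 0.35 (SD) in infested Brahman, 6.66 ± 0.30 in naive Brahman, 5.59 ± 0.61 in infested Holstein-Friesian and 5.09 ± 0.20 in naive Holstein-Friesian animals. In that order the infested and naive Holstein-Friesian arrays were the neighbours that overlapped.

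**Figure D1:**
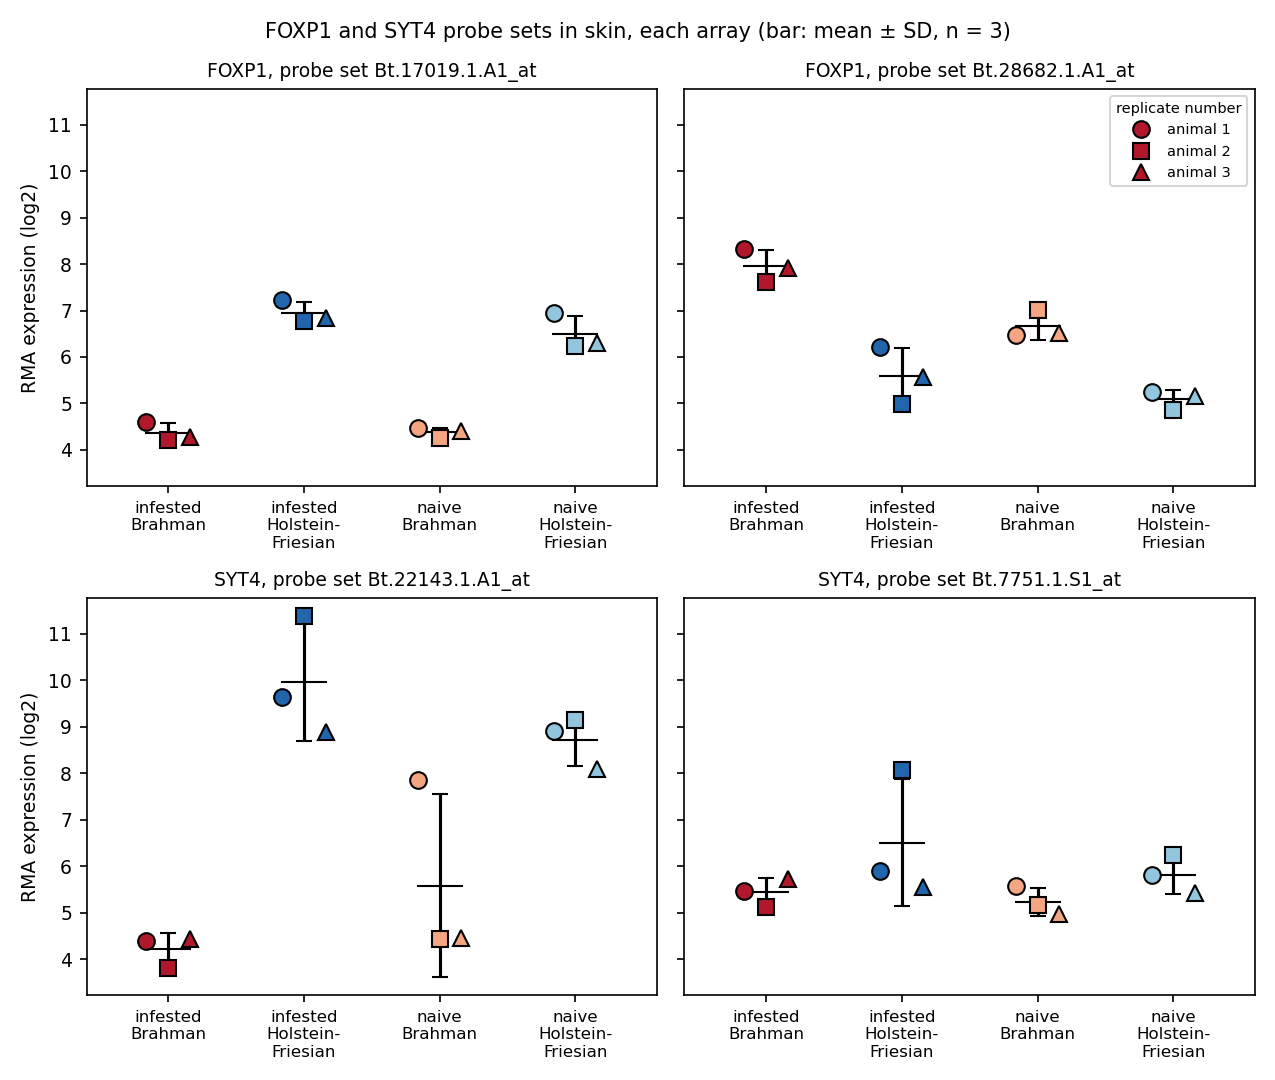
RMA expression on the log2 scale of the 2 FOXP1 and 2 SYT4 probe sets in each array, by group; symbols mark the replicate number, horizontal bars the mean and whiskers the SD of 3 arrays. FOXP1 Bt.17019.1.A1_at lies between 4.21 and 4.60 in all Brahman arrays and between 6.24 and 7.23 in all Holstein-Friesian arrays, FOXP1 Bt.28682.1.A1_at is the other way round, and SYT4 Bt.22143.1.A1_at has 1 naive Brahman array at 7.86.

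The SYT4 probe set Bt.22143.1.A1_at showed the widest breed difference in infested animals of all 24016 probe sets. It read 4.39, 3.81 and 4.44 in infested Brahman skin, against 9.64, 11.38 and 8.88 in infested Holstein-Friesian skin. In naive skin it read 7.86, 4.43 and 4.46 in Brahman animals, against 8.90, 9.15 and 8.09 in Holstein-Friesian animals. Naive Brahman 1 thus stood 3.40 log2 above the next naive Brahman array and 0.23 log2 under the lowest Holstein-Friesian array, while the other 5 Brahman arrays lay at or under 4.46. In naive Brahman 1, only 3 of the 24016 probe sets exceeded both other naive Brahman arrays by more.

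The breed difference of Bt.22143.1.A1_at was -5.76 ± 0.85 log2 in infested animals, a 54.0-fold lower signal in Brahman skin. Whether the low Brahman readings stood above background is unknown here too, so this fold is one of signals and not of transcript amounts. Among naive animals it was -3.14 ± 0.85 log2, or 8.79-fold lower in Brahman skin, and -4.28 log2 without naive Brahman 1. The SD of this probe set was 0.35 in infested Brahman, 1.28 in infested Holstein-Friesian, 1.97 in naive Brahman and 0.55 in naive Holstein-Friesian animals. Pooled over the groups its residual SD was 1.22 log2, and 0.487% of all probe sets had a larger one. The SE of 0.85 rests on a spread pooled over the 4 groups. It is therefore the same in infested and naive animals, although naive Brahman arrays varied most. From high to low, the group means were 9.97 in infested Holstein-Friesian, 8.72 in naive Holstein-Friesian, 5.58 in naive Brahman and 4.21 in infested Brahman animals, and within each breed the infested and naive arrays overlapped. The share of probe sets on the same array that read lower was 6.86% to 16.7% in infested Brahman and 81.0% to 97.5% in infested Holstein-Friesian arrays.

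The second SYT4 probe set, Bt.7751.1.S1_at, varied less and did not separate the breeds. It read 5.46, 5.13 and 5.73 in infested Brahman skin, against 5.89, 8.07 and 5.56 in infested Holstein-Friesian skin. In naive skin it read 5.57, 5.16 and 4.97 in Brahman animals, against 5.81, 6.24 and 5.42 in Holstein-Friesian animals. Of the 6 Brahman arrays, 3 lay below the lowest Holstein-Friesian array. The breed difference was -1.07 ± 0.53 log2 in infested animals and -0.59 ± 0.53 log2 in naive animals. The infested value was -0.28 log2 without infested Holstein-Friesian 2, and the naive one -0.38 log2 without naive Holstein-Friesian 2. Infested Holstein-Friesian 2 was the highest array in both SYT4 probe sets, by 1.74 log2 over the next of its group in Bt.22143.1.A1_at and by 2.18 log2 in Bt.7751.1.S1_at.

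Over all probe sets, the 6 Brahman and 6 Holstein-Friesian arrays failed to overlap for 100 of 24016, or 0.416%, of which 63 (0.262%) were higher and 37 (0.154%) lower in Brahman animals. Both FOXP1 probe sets and SYT4 Bt.22143.1.A1_at were among these 100, which follows from how the genes were selected. By the width of the gap between the breeds FOXP1 Bt.17019.1.A1_at ranked 3rd, FOXP1 Bt.28682.1.A1_at 17th and SYT4 Bt.22143.1.A1_at 19th. The median size of the breed difference over all probe sets was 0.20 log2 in infested and 0.13 log2 in naive animals. By limma, with a Benjamini-Hochberg adjusted p under 0.05, 40 probe sets (0.167%) were called between the breeds in infested animals, 6 (0.025%) in naive animals and 33 (0.137%) in the mean of both.

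**Figure D2:**
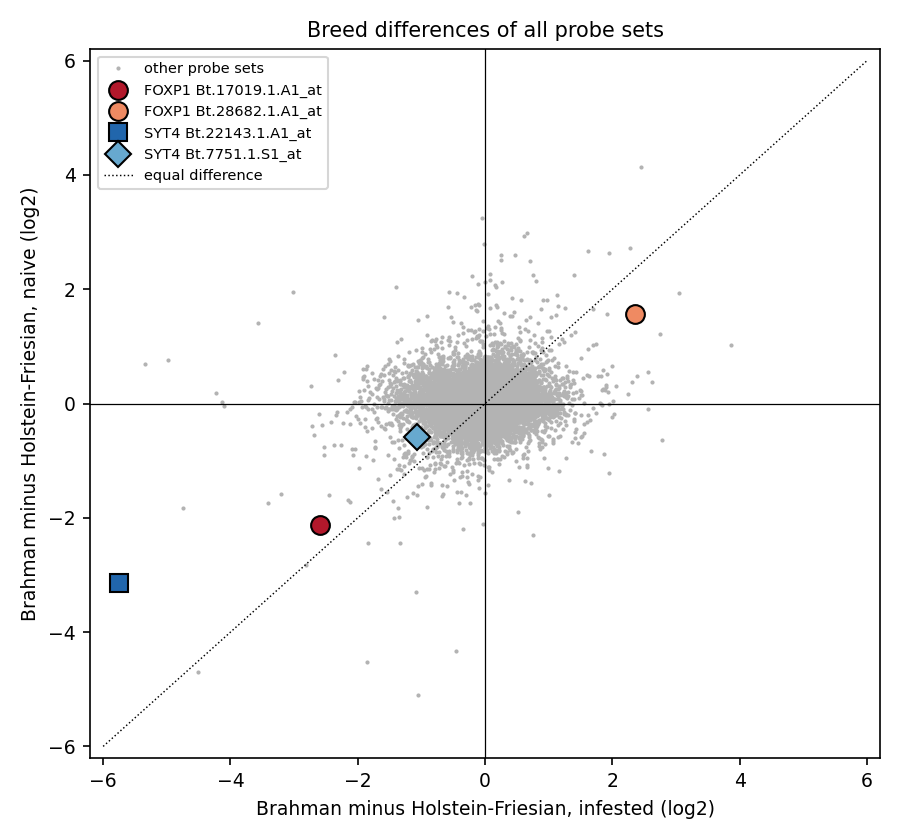
Brahman minus Holstein-Friesian difference of all 24016 probe sets in infested animals (horizontal, log2) and naive animals (vertical, log2), with FOXP1 and SYT4 probe sets marked and a dotted line where both are equal. The FOXP1 probe sets stand at -2.59 and -2.12 and at 2.36 and 1.57, and SYT4 Bt.22143.1.A1_at at -5.76 and -3.14.

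Disagreement between the probe sets of a gene was rare at this size. Of 2913 genes with 2 or more probe sets, FOXP1 had the widest spread of the breed difference (mean of infested and naive), 4.32 log2 between -2.35 and 1.96, and SYT4 the next widest, 3.62 log2 between -4.45 and -0.83. The median spread over the 2913 genes was 0.21 log2. A spread of at least 2 log2 was found for 3 genes, the other being the MHC class II gene BOLA-DQB1 at 2.16 log2 over 5 probe sets. FOXP1 was the 1 gene whose non-overlapping probe sets ran in opposite directions. These ranks come from the contrast that picked the genes and are given as a description.

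**Figure D3:**
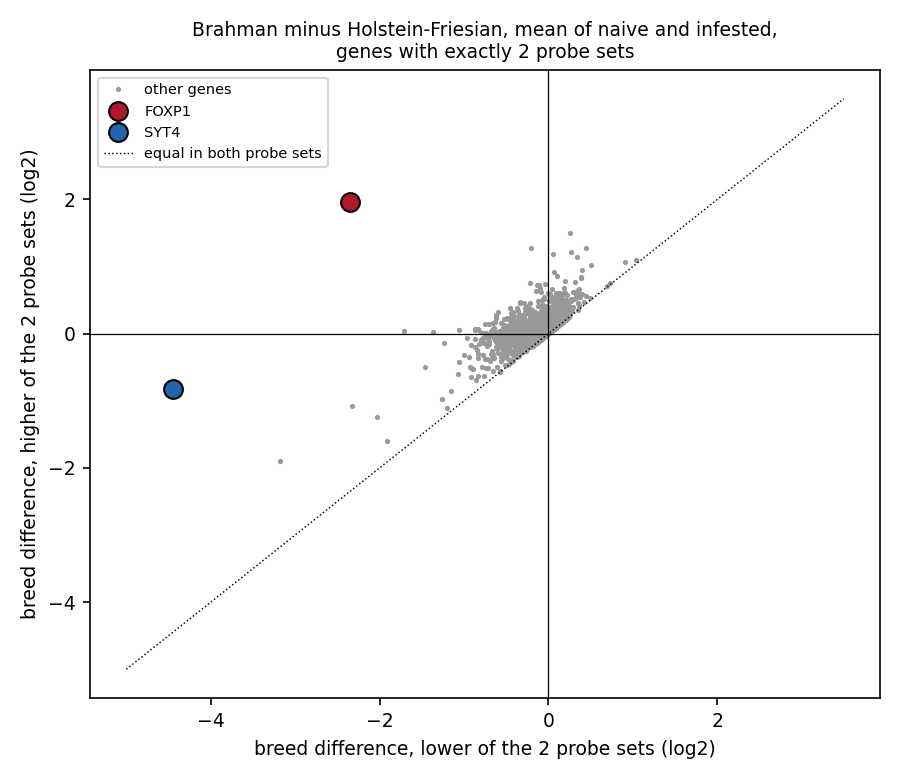
Breed difference (Brahman minus Holstein-Friesian, mean of infested and naive, log2) of the 2093 genes with exactly 2 probe sets, with the lower of the 2 values horizontal, the higher vertical, and a dotted line where both are equal. FOXP1 lies at -2.35 and 1.96 and SYT4 at -4.45 and -0.83, away from the cloud of other genes.

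Infestation was tested in each breed. The genes were chosen on breed differences and not on this contrast, but the same infested and naive arrays enter both. These tests are therefore not independent of the choice. FOXP1 Bt.28682.1.A1_at rose in Brahman animals, by 1.30 ± 0.29 log2 (SE) or 2.45-fold, by limma with an adjusted p = 0.0126. All 3 infested Brahman arrays, from 7.62 to 8.32, lay above all 3 naive Brahman arrays, from 6.46 to 7.0. In that comparison 19.8% of all probe sets were called, 9.54% as higher, and 38.5% did not overlap between infested and naive arrays, 19.3% as higher, so a call or a separation was common. The calls were 2292 higher and 2461 lower, and 3002 and 1983 when each array was centred on its median. Without naive Brahman 3 the rise was 1.22 log2 and did not pass (adjusted p = 0.0518). With the integrity index as a covariate it was 0.60 log2 and did not pass (adjusted p = 0.287).

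In Holstein-Friesian animals the same probe set differed by 0.50 ± 0.29 log2 and did not pass (adjusted p = 0.352, 95% confidence interval -0.14 to 1.14), and the value was 0.19 without infested Holstein-Friesian 1 and 0.80 without infested Holstein-Friesian 2. In this comparison 5.02% of all probe sets were called. FOXP1 Bt.17019.1.A1_at differed by -0.01 ± 0.20 log2 in Brahman animals (adjusted p = 0.972, interval -0.46 to 0.44). In Holstein-Friesian animals it differed by 0.46 ± 0.20 log2 (adjusted p = 0.219, interval 0.01 to 0.91). Neither value passed. The change with infestation was not shown to differ between the breeds for either FOXP1 probe set. The difference of the 2 changes, Brahman minus Holstein-Friesian, was 0.79 ± 0.41 log2 for Bt.28682.1.A1_at (adjusted p = 0.662) and -0.47 ± 0.29 log2 for Bt.17019.1.A1_at (adjusted p = 0.689). Without infested Holstein-Friesian 2 the first of these was 0.50 log2. This interaction called 1 of 24016 probe sets, or 0.00416%, and it shares all 12 arrays with the breed contrasts.

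No SYT4 probe set passed for infestation. Bt.22143.1.A1_at stood at -1.37 ± 0.85 log2 in Brahman animals (adjusted p = 0.28), and at -0.23 without naive Brahman 1. In Holstein-Friesian animals it stood at 1.25 ± 0.85 log2 (adjusted p = 0.433), and at 0.54 without infested Holstein-Friesian 2. Its intervals ran from -3.25 to 0.51 log2 in Brahman and from -0.63 to 3.13 log2 in Holstein-Friesian animals, so changes of several-fold in either breed were within the error. The difference between the breeds in this change was -2.62 ± 1.21 log2 (adjusted p = 0.662, unadjusted p = 0.0531 by limma), and -1.48 without naive Brahman 1. Bt.7751.1.S1_at stood at 0.21 ± 0.53 log2 in Brahman and 0.69 ± 0.53 log2 in Holstein-Friesian animals (adjusted p = 0.814 and 0.49), the second being -0.10 without infested Holstein-Friesian 2. Its difference between the breeds was -0.48 ± 0.74 log2 (adjusted p = 0.87).

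**Figure D4:**
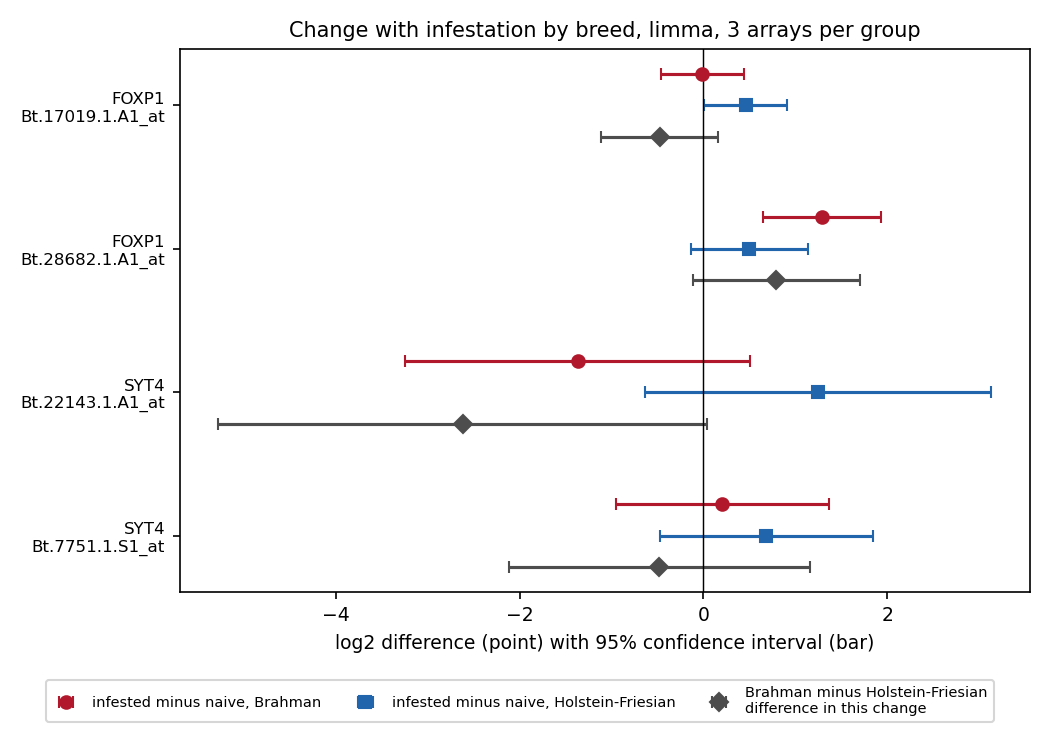
Change with infestation (infested minus naive, log2) of each FOXP1 and SYT4 probe set in Brahman and Holstein-Friesian animals and the difference between the breeds in this change; points are limma estimates from 3 arrays per group and bars 95% confidence intervals. FOXP1 Bt.28682.1.A1_at in Brahman animals, at 1.30 log2, is the 1 value that passed the adjusted threshold.

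RNA integrity was set against the levels of each probe set. For FOXP1 Bt.28682.1.A1_at, the highest Holstein-Friesian array, infested Holstein-Friesian 1 at 6.21, had the lowest index of that breed, and the highest Brahman array, infested Brahman 1 at 8.32, had the lowest index of all. Across the 6 Holstein-Friesian arrays, Pearson's r with the index was -0.94 (exact permutation p = 0.0194, adjusted p = 0.133) and Spearman's rho was -0.89 (exact permutation p = 0.0333, adjusted p = 0.233). Without the 2 arrays farthest from the median index r was -0.72. For Bt.17019.1.A1_at r was -0.71 (exact permutation p = 0.0528, adjusted p = 0.141) and rho was -0.83 (exact permutation p = 0.0583, adjusted p = 0.233), and r was -0.83 without the 2 farthest arrays. For the SYT4 probe sets r was 0.11 and 0.39 and rho 0.20 and 0.43 (exact permutation p = 0.906 and 0.308 for r, 0.714 and 0.419 for rho). The p-values were adjusted over 8 relations, 4 per breed, and none passed. Infested and naive Brahman arrays form separate clusters of 3 each on the index, so no value across them is given. The breed difference of Bt.28682.1.A1_at in infested animals was 1.86 log2 with the index as a covariate and 2.49 log2 without the 2 arrays of lowest index, and that of Bt.17019.1.A1_at was -2.89 and -2.57 log2. In naive animals, where the index was similar, these differences were 1.63 and -2.08 log2 with the covariate.

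**Figure D5:**
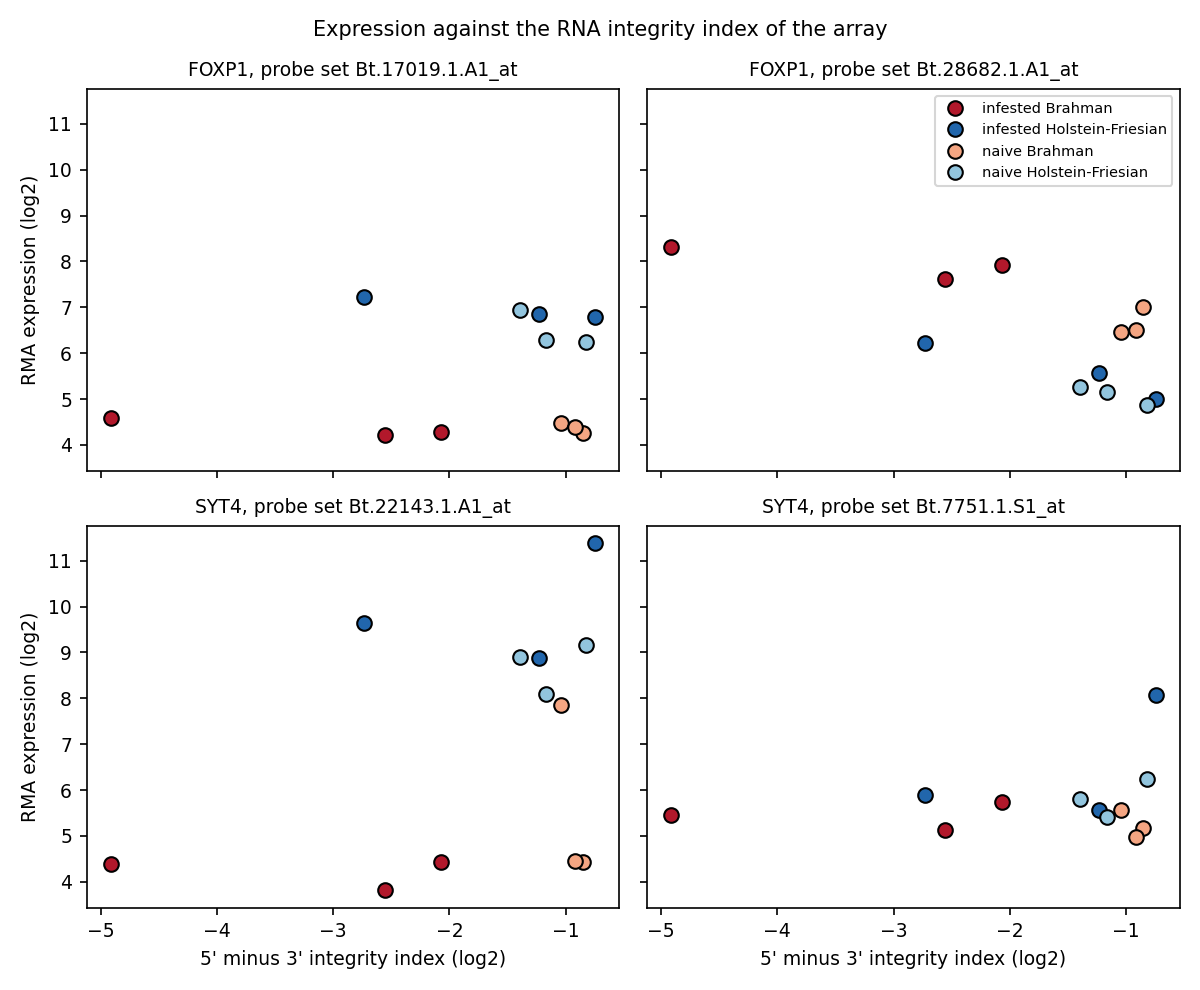
RMA expression (log2) of each FOXP1 and SYT4 probe set against the 5' minus 3' integrity index of the array (log2, lower means less 5' signal), coloured by group. FOXP1 Bt.28682.1.A1_at is highest at the array with an index of -4.91 and its values run lower towards -0.75 in Holstein-Friesian arrays, while Bt.17019.1.A1_at stays between 4.21 and 4.60 over the whole Brahman range of the index.

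The probe sets of 1 gene were also compared with each other within a breed, a relation that the choice of genes did not use. In the 6 Holstein-Friesian animals the 2 FOXP1 probe sets varied in the same direction, with r = 0.78 (exact permutation p = 0.0444, adjusted p = 0.0889) and rho = 0.89 (exact permutation p = 0.0333, adjusted p = 0.0667), and r was 0.90 without the 2 arrays farthest from the median. The sign here is positive, while the breed differences of these probe sets have opposite signs, and the relation did not pass after adjustment over 4 relations. In the same 6 arrays Bt.17019.1.A1_at and Bt.28682.1.A1_at had an r of -0.71 and -0.94 with the integrity index. Both were highest in infested Holstein-Friesian 1, the array of lowest index in that breed. The part of RNA integrity, or of infestation with age, in the positive sign was not tested. The 2 SYT4 probe sets gave r = 0.95 (exact permutation p = 0.0306, adjusted p = 0.0889) and rho = 0.94 (exact permutation p = 0.0167, adjusted p = 0.0667) in Holstein-Friesian animals. This rested on the 2 farthest arrays, since r was 0.37 without them. In Brahman animals the SYT4 probe sets gave r = 0.42 (exact permutation p = 0.469, adjusted p = 0.626) and rho = 0.26 (exact permutation p = 0.658, adjusted p = 0.878), and r was -0.37 without the 2 farthest arrays. In Brahman animals the FOXP1 probe sets gave r = 0.09 (exact permutation p = 0.853, adjusted p = 0.853) and rho = 0.03. Without the 2 farthest arrays r was -0.72. In 1 of the 2 FOXP1 probe sets the infested and naive Brahman arrays formed separate clusters of 3. The Brahman value therefore mixes infestation with the relation between animals, and 3 arrays are too few for a value in each cluster.

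The gene with the profile most like FOXP1 Bt.17019.1.A1_at over the 12 arrays was SYT17, another synaptotagmin (Pearson's r = 0.93). Next came the methyl-CpG binding protein gene MBD1 (r = 0.92), ANXA8L1 of the annexin family (0.92) and KRT15, a keratin of basal and hair follicle cells (0.90). These 4 differed far less between the breeds than FOXP1. SYT17, for example, averaged 7.55 over the Brahman and 8.15 over the Holstein-Friesian arrays. Of these, SYT17 and KRT15 have another probe set and MBD1 has 2 more. The second SYT17 and KRT15 probe sets differed between the breeds by -0.21 and -0.11 log2, beside -0.60 and -0.70 log2 for those named, and for MBD1 the probe set nearest 0 stood at -0.09 log2, beside -0.61 log2. The most opposite profiles were those of CYP4A11, a fatty acid hydroxylase (r = -0.90), the elongation factor gene TCEA3 (-0.90), the lipoxygenase ALOX12E (-0.89) and NXPH1 (-0.88). CYP4A11 averaged 6.98 over the Brahman and 4.84 over the Holstein-Friesian arrays, and ALOX12E 10.61 and 7.31. All 8 of these probe sets separated the breeds without overlap, as 0.416% of all probe sets did. They were picked for likeness to a probe set that separates the breeds, so the count is no further result. For NXPH1 the step was small and between low readings, 4.06 over the Brahman and 3.88 over the Holstein-Friesian arrays.

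For SYT4 Bt.22143.1.A1_at the most alike gene over the 12 arrays was FOXP1 itself, through Bt.17019.1.A1_at (r = 0.89), followed by MBD1 (0.89), METTL21A (0.87) and the histone gene H2BC19 (0.85). The most opposite were TRMT12 (-0.92), TCEA3 (-0.88), the anti-apoptotic gene BCL2 (-0.87) and SEC22B of vesicle transport (-0.86). TCEA3 averaged 6.64 over the Brahman and 5.70 over the Holstein-Friesian arrays. For BCL2 the step was small, 10.31 against 10.10, and of its other probe sets the one nearest 0 stood at 0.05 log2. TRMT12, SEC22B, METTL21A and H2BC19 overlapped between the breeds. The second TRMT12 and SEC22B probe sets differed between the breeds by 0.34 and 0.19 log2, beside 0.64 and 0.68 log2 for those named. Both breeds contribute to these coefficients, so they mainly carry the step between the breeds, and they are a description over 12 arrays.

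Genes beside FOXP1 and SYT4 in the RefSeq gene table (assembly ARS-UCD2.0, used here for names and gene order alone) were read for the same contrast. For each gene the 5 nearest genes on either side with a probe set of their own were taken, which gave 10 genes and 12 probe sets each. Other annotated genes lay in between, from 1 for EIF4E3 to 29 for TRNT1 near FOXP1. Near SYT4 these were from 2 for LOC281376 to 29 for MOCOS, so the closest surroundings were read only in part. None of the 24 probe sets passed between the breeds in infested animals, in naive animals or in their mean, and none separated the 12 arrays. By limma 0.167%, 0.025% and 0.137% of all probe sets passed in these comparisons, and 0.416% separated the breeds. With shares this small, finding none among 24 does not set the neighbours apart. Around FOXP1 the mean breed difference ran from -0.24 log2 for SHQ1, which acts in small nucleolar RNA assembly, to 0.41 log2 for 1 of 2 probe sets of the cap-binding protein gene EIF4E3. MITF, the melanocyte master regulator, stood at -0.14 log2. Around SYT4 it ran from -0.77 log2 for 1 of 2 probe sets of LOC281376 to 0.78 ± 0.16 log2 for MOCOS, the molybdenum cofactor sulfurase (adjusted p = 0.113). PIK3C3, a lipid kinase of autophagy, stood at -0.07 log2.

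With infestation, 5 of the 24 neighbouring probe sets passed in Brahman and 1 of 24 in Holstein-Friesian animals, shares near the 19.8% and 5.02% of all probe sets, and they are given for completeness. EIF4E3 rose through 1 of its 2 probe sets by 1.42 log2 in Brahman animals (adjusted p = 0.00249), its other at -0.36, and TRNT1, the tRNA CCA-adding enzyme, fell by 1.95 log2 (adjusted p = 0.00888). DSEL rose through 1 of its 2 probe sets by 1.20 log2 in Brahman and 1.41 log2 in Holstein-Friesian animals (adjusted p = 0.00251 and 0.00615, limma). SERPINB8 and 1 of 2 probe sets of LOC281376 rose in Brahman animals by 1.11 and 0.49 log2 (adjusted p = 0.041 and 0.0473), and the other LOC281376 probe set stood at -1.32 log2 (adjusted p = 0.128). The other DSEL probe set stood at -0.12 log2 in Brahman and 0.87 log2 in Holstein-Friesian animals.

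Of 15 listed relatives and partners of FOXP1, 11 were measured: other FOXP and FOXO factors and corepressors that work with FOXP1. None passed between the breeds in infested or naive animals, where 0.167% and 0.025% of all probe sets did. The median breed difference of the list was -0.03 log2 in infested and -0.01 log2 in naive animals, beside 0.05 and 0.00277 log2 over all probe sets. FOXP2 stood at -0.29 log2 in infested and -0.13 log2 in naive animals, and FOXP4 at 0.45 and -0.17 log2. With infestation MTA1, a subunit of the NuRD corepressor complex, fell by 1.35 ± 0.22 log2 in Brahman and by 1.15 ± 0.22 log2 in Holstein-Friesian animals (adjusted p = 0.00285 and 0.0182). The deacetylase gene HDAC2 fell by 1.08 ± 0.20 log2 in Brahman animals (adjusted p = 0.00508), while its other 2 probe sets stood at 0.03 and 0.06 log2. By the probe set that stood for each gene, 2 of 11 genes fell in Brahman and 1 of 11 in Holstein-Friesian animals, and none rose, beside 19.8% and 5.02% of all probe sets called in these comparisons, so the counts do not set the list apart. These counts take 1 probe set a gene. Other probe sets fell for FOXP4 in Brahman and Holstein-Friesian animals (-0.51 and -0.73 log2, adjusted p = 0.0462 and 0.031), for CTBP1 in both (-0.94 and -1.001 log2, adjusted p = 0.00683 and 0.0164) and for NCOR1 in Brahman animals (-0.84 log2, adjusted p = 0.0208). The list median was -0.05 log2 in Brahman and 0.05 log2 in Holstein-Friesian animals, beside 0.04 and -0.03 log2 over all probe sets.

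Of 51 listed synaptotagmin and vesicle fusion genes other than SYT4, 25 were measured. None passed between the breeds in infested or naive animals, where 0.167% and 0.025% of all probe sets did. The median breed difference of the list was 0.00065 log2 in infested and -0.02 log2 in naive animals. The mean breed differences ran from -0.83 log2 for RAB27B, a small GTPase of secretory vesicles (adjusted p = 0.122), to 0.46 log2 for SNAP25, a SNARE of synaptic exocytosis. The smallest adjusted p in the mean of both was 0.052, for SYT17 at -0.60 log2. With infestation in Brahman animals the SNARE genes STX6 and VAMP3 rose by 0.73 ± 0.20 and 0.65 ± 0.15 log2 (adjusted p = 0.0296 and 0.0153), and VAMP7 and the vesicle priming gene UNC13B fell by 2.29 ± 0.63 and 0.73 ± 0.18 log2 (adjusted p = 0.0291 and 0.0194). In Holstein-Friesian animals 1 gene passed, UNC13B, which fell by 0.73 ± 0.18 log2 (adjusted p = 0.0454). These 4 of 25 and 1 of 25 genes stand beside 19.8% and 5.02% of all probe sets called, so the counts do not set the list apart. Further probe sets of listed genes passed in Brahman animals: SNAP23 (1.96 log2, adjusted p = 0.00941), STX6 (1.34 log2, adjusted p = 0.0406) and SYT17 (-0.92 log2, adjusted p = 0.00478).

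Markers of cells that could carry these transcripts were read beside them. Of 21 neuroendocrine, Merkel cell and nerve markers, 17 were measured and none passed between the breeds. Of all probe sets 0.167% passed there in infested and 0.025% in naive animals. The summed level of the 17 lay between 86.7 and 92.5 in infested Brahman, 87.9 and 89.3 in infested Holstein-Friesian, 88.3 and 88.9 in naive Brahman and 87.8 and 88.7 in naive Holstein-Friesian arrays. The Merkel cell keratin KRT20 averaged 3.69, 3.57, 3.46 and 3.58 in the same 4 groups. These are low readings, as were the means over all arrays of CHGB (3.58), SCG3 (3.83), NEFL (3.81) and ATOH1 (4.05), while CHGA averaged 11.11. In infested Brahman 2, a reading of 3.81 had 6.86% of all probe sets below it. Whether the low markers stood above background is unknown, so their flat levels do not show equal cell content. The summed level of pigment cell markers stood lower, as SYT4 did, in infested Brahman than in infested Holstein-Friesian animals. Over 5 measured of 8 melanocyte markers, the summed level lay between 27.8 and 34.8 in infested Brahman and 38.3 and 42.6 in infested Holstein-Friesian arrays. In naive animals it lay between 31.8 and 38.2 in Brahman and 35.0 and 38.8 in Holstein-Friesian arrays, which overlapped. Infested Brahman 3 was the highest array of its group in this level (34.8) and in SYT4 Bt.22143.1.A1_at (4.44). In each other group these were different arrays. Naive Brahman 2 had 38.2 and read 4.43 for SYT4, while naive Brahman 1 had 35.7 and read 7.86. In infested Holstein-Friesian animals SYT4 was highest in animal 2 (11.38) and the summed level in animal 3 (42.6). In naive ones SYT4 was highest in animal 2 (9.15) and the summed level in animal 1 (38.8). None of the 5 passed between the breeds. The nearest was the melanosome enzyme gene TYRP1, which read 4.98, 5.30 and 8.19 in infested Brahman skin, against 9.88, 9.93 and 11.07 in infested Holstein-Friesian skin (adjusted p = 0.0793). MITF and DCT overlapped between the breeds in infested animals, while PMEL, TYR and TYRP1 did not. The share of all probe sets without overlap in this comparison of 3 against 3 arrays is not given here. Between infested and naive Brahman arrays, also 3 against 3, it was 38.5%, so the missing overlap does not set these markers apart. The part of melanocyte number in the SYT4 values was not tested.

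Of 5 measured hair follicle stem cell genes of 12 listed, and of 4 measured B cell markers of 12 listed, none passed between the breeds. Of all probe sets 0.167% passed there in infested and 0.025% in naive animals, so this does not set such short lists apart. The hair follicle list had a median breed difference of -0.56 log2 in infested and -0.10 log2 in naive animals, and the B cell list of 0.03 and 0.37 log2. With infestation no hair follicle gene passed through the probe set that stood for it. Another CDKN1C probe set rose in Brahman animals (0.83 log2, adjusted p = 0.0176). The CDKN1C probe set that stood for the gene was at 0.73 log2 there (adjusted p = 0.06). The remaining one was at -0.33 log2 (adjusted p = 0.141). Of the B cell markers POU2AF1, a coactivator of immunoglobulin genes, rose in Holstein-Friesian animals (2.19 log2, adjusted p = 0.0489), and none passed in Brahman animals. Of all probe sets 5.02% were called in Holstein-Friesian and 19.8% in Brahman animals. Of the 5 measured Schwann cell markers of 11 listed, none passed in any comparison through the probe set that stood for it. Another MBP probe set fell with infestation in Brahman animals (-0.74 log2, adjusted p = 0.0337). The other MBP probe sets were at 0.40 and 0.18 log2 there and did not pass.

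Markers of other cells were read in the infestation comparison in which FOXP1 Bt.28682.1.A1_at rose, where the share of all probe sets called was 19.8% for Brahman and 5.02% for Holstein-Friesian skin. Of 7 measured macrophage markers of 9 listed, 4 rose in Brahman and 5 in Holstein-Friesian animals, among them CD14 by 1.49 and 2.22 log2 (adjusted p = 0.0107 and 0.00698). Their summed level lay between 62.3 and 65.8 in infested Brahman, 65.8 and 67.8 in infested Holstein-Friesian, 52.3 and 56.6 in naive Brahman and 51.1 and 59.1 in naive Holstein-Friesian arrays. Of 10 T cell markers 3 rose in Brahman animals, CD8A, CD8B and LCK, and none passed in Holstein-Friesian animals. Of the other LCK probe sets 1 fell in Brahman animals (-0.61 log2, adjusted p = 0.0393) and 1 rose (0.39 log2, adjusted p = 0.0475). Of 8 measured keratinocyte and fibroblast markers of 12 listed, 5 rose in Brahman animals, all fibroblast matrix genes such as COL3A1 (1.16 log2, adjusted p = 0.000844), and 1 rose in Holstein-Friesian animals, LUM (1.21 log2, adjusted p = 0.0255). Of 11 measured skeletal muscle markers of 13 listed, 1 rose and 3 fell in Brahman animals, among them MYBPC1 (-2.56 log2, adjusted p = 0.00384), and none passed in Holstein-Friesian animals. The gene that rose was CKM (1.25 log2, adjusted p = 0.01), of which another probe set fell (-1.96 log2, adjusted p = 0.0215). The nerve list held 1 gene that rose in Brahman animals, STMN2 (0.91 log2, adjusted p = 0.0243), and 1 that fell, CHGA (-0.82 log2, adjusted p = 0.0393). TYRP1 of the melanocyte list fell there (-2.73 ± 0.80 log2, adjusted p = 0.035). The part of these cells in the FOXP1 change was not tested.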

How the data were processed

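RNA from 12 skin biopsies was hybridised to 1 array each. The deposited log2 values came from RMA, run by the authors, per the submitters' processing notes. Which RMA program, version and chip definition they used is not given in the sources used here. That the scale is log2 follows from the range of the values. Array medians lay between 6.58 and 6.73 log2. Of 24128 probe sets, 112 controls were left out and 24016 tested without a filter. Genes were named from the platform annotation (13292 probe sets with 1 symbol, 86 with several, 10638 with none). Of the probe sets with 1 symbol, 13263 had a gene ID that is in the RefSeq table.

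All 12 arrays entered 1 limma 3.58.1 model of 4 group means (R 4.3.3, lmFit, eBayes, 8 residual and 3.03 prior degrees of freedom). P-values were two-sided and Benjamini-Hochberg adjusted over all probe sets of a comparison, with a threshold of 0.05. The step was tested on simulated data. The number of arrays limits the precision.

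The members, gene lists and tests were chosen with earlier results of these data known. A lead probe set has the largest breed difference of its gene. Named genes were the 4 most alike and 4 most opposite to each lead probe set, the neighbours, and up to 4 genes of each list, with called genes first. The probe set with the highest mean stood for a gene in lists.

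Replicate numbers are shared by the groups. In Holstein-Friesian animals, infested and naive arrays of equal number deviated together from their group means (r = 0.113 to 0.249), above the 0.1 that was set for taking numbers as paired, although the labels state no pairing. In the other 5 pairs of groups at least 1 correlation was below it. The labels give no hybridisation batch. Alternatives were median centring, cyclic loess, a low-signal filter (40 percent quantile), another prior, fewer arrays, array weights, a replicate block, the integrity index, and leaving out arrays.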

Additional observations from a re-analysis of the deposited data

Results flagged for a closer look

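Among the 6 Brahman arrays, naive Brahman 1 read 7.86 log2 for SYT4 Bt.22143.1.A1_at, and the next highest Brahman array 4.46. Among the 6 Holstein-Friesian arrays, infested Holstein-Friesian 2 read 8.07 log2 for SYT4 Bt.7751.1.S1_at, and the next highest 6.24. In both cases the gap to the nearest array was a larger share of the breed's whole range (0.84 and 0.69) than Dixon's critical value for 6 samples allows. There were 8 such sets of 6 arrays, 4 probe sets in 2 breeds, and chance alone flags about 1 in 20. No array was flagged for a FOXP1 probe set.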

How the results depend on the processing

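The breed differences of FOXP1 and SYT4 kept their direction under all alternatives run, and moved by more than the spread between animals for FOXP1 Bt.17019.1.A1_at and Bt.28682.1.A1_at in infested animals with the integrity index as a covariate (-2.89 and 1.86 log2) and for SYT4 Bt.7751.1.S1_at in infested animals with 1 array left out (-1.54 to -0.28). The low-signal filter removed FOXP1 Bt.17019.1.A1_at and SYT4 Bt.7751.1.S1_at, so that setting has no value for them. The rise of FOXP1 Bt.28682.1.A1_at with infestation in Brahman animals was 0.60 log2 and did not pass with the index as a covariate; with 1 array left out it was 1.11 to 1.47 and did not pass without naive Brahman 3. Values near 0 that changed sign were the Brahman infestation change of FOXP1 Bt.17019.1.A1_at (0.081 with each array centred on its median, -0.13 to 0.063 with 1 array left out), the Holstein-Friesian change of SYT4 Bt.7751.1.S1_at (-0.10 to 1.16 with 1 array left out) and its difference between the breeds (0.0063 with the index, -0.95 to 0.30 with 1 array left out). The cause was not tested. The replicate block, on numbers shared in the labels, changed no call of the FOXP1 and SYT4 probe sets: for FOXP1 Bt.28682.1.A1_at in Brahman animals it gave 1.30 log2 (adjusted p = 0.0136).

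Counts of called probe sets depended on the setting. With array weights they were 7657 for infestation in Brahman and 4589 in Holstein-Friesian animals (4753 and 1206 as reported), 648 for the difference between the breeds in the infestation change (1 as reported), 1082 between the breeds in infested animals (40), 400 in naive animals (6) and 506 in the mean of both (33). With the integrity index as a covariate they were 1808 for infestation in Brahman and 2022 in Holstein-Friesian animals, 17 between the breeds in naive animals and 55 in the mean of both. Without infested Brahman 1 and infested Holstein-Friesian 1, the 2 arrays of lowest index, they were 4076 for infestation in Holstein-Friesian animals, 1131 for the difference in the infestation change, 2200 between the breeds in infested animals, 66 in naive animals and 879 in the mean of both. Fitting only the arrays of the comparison gave 3000 for infestation in Brahman animals, 1 between the breeds in infested and 64 in naive animals. The replicate block gave 0 for the difference in the infestation change and 20 for the mean breed difference. Cyclic loess gave 2 for the difference in the infestation change, the trend and robust prior 13 between the breeds in naive animals, and the low-signal filter 25 in infested animals. With 1 array left out, the counts ran from 2216 to 5567 for infestation in Brahman animals, 157 to 2563 in Holstein-Friesian animals, 0 to 390 for the difference in the infestation change, 11 to 1235 between the breeds in infested animals, 5 to 37 in naive animals and 12 to 260 in the mean of both.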

Other observations

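Besides FOXP1 Bt.17019.1.A1_at, 4 probe sets left a gap of at least 1 log2 between all Brahman and all Holstein-Friesian arrays. They were chosen here after their values were seen. PON3, a paraoxonase, was lower in Brahman animals (-4.60 log2, mean of infested and naive), and ALOX12E, CYP4A11 and the unnamed probe set Bt.6848.1.S1_at were higher (3.30, 2.14 and 2.29 log2). PON3, ALOX12E and CYP4A11 each have 1 probe set, so no second reading of these genes was available.

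Of 18 genes with several probe sets and at least 1 that separated the breeds, 17 had 1 such probe set, SYT4 among them. AGA, an enzyme of glycoprotein breakdown, stood at 1.27 log2 through the separating probe set and at -0.20 log2 through the other. For CYB5R1 and MRNIP the other probe set was close to the separating one (-0.58 against -0.57 log2, and 0.69 against 0.71 log2).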
